A study of Glycine max with 8 samples.

Results

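The broad binding domains of a soybean WOX9-like protein were examined, that is, the stretches of the genome where 1 peak of the heart-stage lists was at least 2000 bp wide. Peaks of that width were taken from the list of heart replicate 1 (717 peaks) and heart replicate 2 (366 peaks), and peaks that overlapped by 1 bp or more were merged. This gave 768 domains, out of 62623 regions with a heart peak and 73988 regions with a peak in any of the 4 lists. The width of the heart peaks therefore chose the domains, and heart widths over them are given as a description. Chromatin came from whole seeds of the cultivar Williams 82, without a transgene or treatment named in the labels. Seeds of 1.0 to 1.5 mm contained globular embryos, and seeds of 1.7 to 2.1 mm contained heart-stage embryos. Each stage had 2 chromatin immunoprecipitation (ChIP) libraries, for which antibodies were raised in rabbit against a WOX9-like peptide, and 2 input libraries of total chromatin. The 4 ChIP libraries have a peak list each, and the input libraries were not analysed here. The labels do not say whether replicates came from separate plants, so their spread may be technical.

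WUSCHEL-related homeobox (WOX) proteins are plant transcription factors that bind DNA through a homeodomain. In Arabidopsis, WOX9 (STIMPY) is needed for early embryo patterning and for sustained cell division in the shoot meristem. A homeodomain contacts a short DNA motif, and a protein bound at a single site pulls down the fragments that contain it. The chromatin was sheared to fragments of 100 to 500 bp, so a peak of several kilobases holds enriched fragments from many neighbouring positions. Whole seeds contain seed coat, endosperm and embryo, and binding in more cells cannot be told apart from stronger binding per cell.

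Wide peaks were rare in every list and least frequent in globular replicate 1. Peaks of 2000 bp or more made up 0.0999% of the 46027 peaks of globular replicate 1 (46 peaks). In globular replicate 2 they made up 0.635% of 44581 peaks (283 peaks). The heart lists held 1.18% of 60537 peaks in replicate 1 and 0.724% of 50579 peaks in replicate 2. Globular replicate 2 was thus close to heart replicate 2, and the lowest and highest shares were those of globular replicate 1 and heart replicate 1. The mean share was 0.954% at the heart stage and 0.367% at the globular stage, a difference of 0.587 percentage points. An exact permutation test over the 4 libraries of the difference was two-sided, and its p of 0.333 is the lowest a design with 2 libraries per stage can reach. The difference was 0.319 points without globular replicate 1, 0.854 without globular replicate 2, 0.356 without heart replicate 1 and 0.817 without heart replicate 2. The order was not limited to wide peaks. Over the 23335 regions with exactly 1 peak in each list, the median width was 460 bp in globular replicate 1, 542 bp in globular replicate 2, 633 bp in heart replicate 1 and 553 bp in heart replicate 2.

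**Figure D1:**
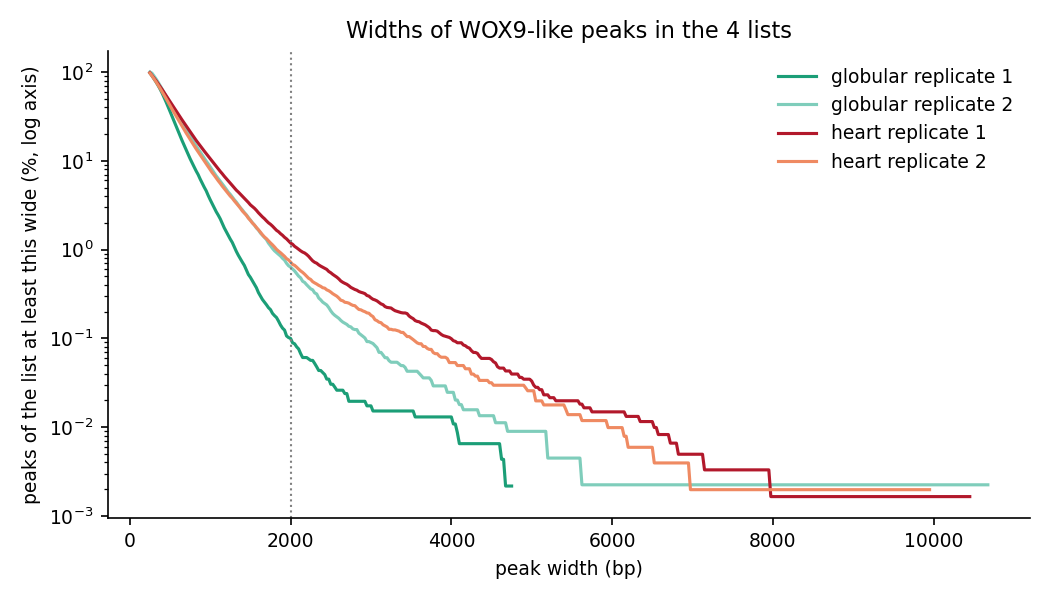
The share of the peaks of each list (%, log axis) that reached a given width (bp), with 1 line per ChIP library and a dotted line at 2000 bp. Globular replicate 1 lies below the other lists over most widths, and at 2000 bp the lines of globular replicate 2 (0.635%) and heart replicate 2 (0.724%) lie close together.

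The lists also differed in how close their peaks could lie to each other. The smallest gap between neighbouring peaks was 52 bp in globular replicate 1 and in both heart lists, and 102 bp in globular replicate 2. Joining peaks less than 102 bp apart in every list, an alternative chosen after the data had been seen, gave 68 peaks of 2000 bp or more in globular replicate 1, 283 in globular replicate 2, 864 in heart replicate 1 and 440 in heart replicate 2. The order of the lists by broad peaks was the same as before. The peak names of globular replicate 2 carry a run name with the words BR1 and Input, which no label explains, so its match to a replicate or control is uncertain wherever the globular lists are compared. The files give no read totals. In the globular lists the deposited fold and p fixed a whole number of reads at the summit for 100% of peaks with a −log10 p under 250. The median was 35 reads (replicate 1) against 67 (replicate 2), so a globular replicate 1 peak rested on fewer reads. The part of depth in the width of peaks was not tested.

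The domains themselves were mostly just above the limit. Their median width was 2460 bp, 402 of 768 were narrower than 2500 bp, 67 were 4000 bp or more, and the widest spanned 10467 bp. A peak of 2000 bp or more was present in both heart lists in 311 domains (40.5%), in heart replicate 1 alone in 404 (52.6%) and in heart replicate 2 alone in 53 (6.90%). Where heart replicate 1 alone was broad, heart replicate 2 had 2 or more peaks in 307 of the 404 domains and 1 narrower peak in the other 97. All 768 domains had at least 1 peak of each heart list. Just inside the limit, a 2001 bp peak of heart replicate 1 lay on chromosome 6 (8090687 to 8092687) with a fold enrichment of 13.4, and another of 2001 bp on chromosome 15 (1217334 to 1219334) with a fold of 20.008. Just outside it lay a 1999 bp peak of chromosome 8 with a fold of 11.1 (10233816 to 10235814) and a 1998 bp peak of chromosome 17 with a fold of 4.37 (41344905 to 41346902). In heart replicate 2 the narrowest peaks kept had 2002 bp and lay on chromosome 1 with a fold of 16.9 (36104674 to 36106675) and on chromosome 7 with a fold of 17.05 (2773642 to 2775643). Its widest peaks outside the limit were a 1999 bp peak of chromosome 20 with a fold of 5.76 (46780268 to 46782266) and a 1998 bp peak of chromosome 10 with a fold of 15.5 (40590373 to 40592370). The outside peaks of chromosomes 17 and 10 overlapped a peak of 2000 bp or more of the other heart list (2136 bp and 2072 bp wide), so a domain covers them. The genome build is not stated in the labels or files, positions follow the files with the first base as 1, and no annotation of that build was used, so domains were not assigned to genes.

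Domains were among the stronger heart sites, but width and fold were weakly related among the broad peaks themselves. The fold enrichment is the authors' value at the summit and ranks peaks within a list. Folds of several lists given side by side for a domain are not compared between lists or stages. Their backgrounds differ, and heart width chose the domains. The strongest peak over a domain had a median fold of 15.2 in heart replicate 1 and 12.9 in heart replicate 2, against a list median of 4.99 and 4.98. Its median rank percentile (0 is the strongest peak of the list) was 6.50 and 7.88. In the globular lists, which did not choose the domains, the strongest peak had a median fold of 9.38 in replicate 1 and 7.73 in replicate 2. The list medians were 5.61 and 3.63, and the median percentile of the strongest peak was 18.8 and 10.3. A domain can hold several peaks, so taking the strongest raises these values and the shares that follow. All globular peaks over domains had a median fold of 6.42 in replicate 1 and 5.55 in replicate 2. The strongest globular peak was in the top 10% of its list in 31.9% of the 749 domains with a peak of globular replicate 1, and in 48.5% of the 759 with a peak of globular replicate 2. It was in the weaker 50% of the list in 18.4% and 13.0% of these domains. Across all peaks of a list, wider peaks had higher folds, with Spearman correlations of 0.69 to 0.76. Among the broad peaks alone the correlation was -0.08 over the 717 of heart replicate 1, -0.22 over the 366 of heart replicate 2, -0.27 over the 46 of globular replicate 1 and 0.05 over the 283 of globular replicate 2. Width and fold of a peak come from the same reads, so these values are a description.

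Nearly every domain had a globular peak, and most domains were made of several globular peaks in at least 1 globular list. A peak was counted over a domain when the 2 overlapped by 1 bp or more, and a domain was called divided in a library when 2 or more peaks of that library lay over it. In globular replicate 1, 552 of 768 domains (71.9%) were divided, against a background of 3.31% of all heart regions. In globular replicate 2, 406 domains (52.9%) were divided, against 2.32% of all heart regions. Most heart regions are too short to hold several peaks, so these backgrounds mark how rare such regions are and not what regions of equal width would give. Both globular lists divided 342 domains (44.5%, background 1.34%) and at least 1 of them divided 616 (80.2%, background 4.28%). A single globular replicate 1 peak lay over 197 domains, 2 peaks over 372, 3 over 135, 4 over 33, 5 over 7, 6 over 3, 7 over 1 and 8 over 1. In globular replicate 2, 353 domains had 1 peak, 315 had 2, 71 had 3, 14 had 4 and 6 had 5. No peak was called in 19 domains in globular replicate 1 and in 9 in globular replicate 2, against 47.2% and 38.1% of all heart regions, and 8 domains had none in either list (background 33.1%).

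The globular peaks over domains left part of most domains uncovered. Heart widths and heart coverage over domains follow from the rule that chose the domains, so they are a description and no comparison of stages. The 1546 peaks of globular replicate 1 over domains had a median width of 628.5 bp and covered a median of 58.2% of a domain. The 1280 peaks of globular replicate 2 had a median width of 963.5 bp and covered 76.0%. Heart replicate 2 had 1257 peaks over the domains with a median width of 1347 bp and covered 89.9%. Heart replicate 1 had 838, with a median of 2328 bp. At least 1 peak of 2000 bp or more was present over 39 domains (5.08%, against 0.0814% of all heart regions) in globular replicate 1 and over 212 (27.6%, against 0.565%) in globular replicate 2. The summits of the globular peaks over domains had a median depth of 41 reads (replicate 1) and 102 reads (replicate 2). In the 332 domains with a single peak in each heart list, globular replicate 1 was divided in 219 (66.0%), globular replicate 2 in 127 (38.3%) and both in 107 (32.2%). These shares were below those over all 768 domains, which were 71.9%, 52.9% and 44.5%. In 88 domains each of the 4 lists had exactly 1 peak.

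The division of a broad peak was not limited to the globular stage, since the second heart list divided the broad peaks of the first about as often as globular replicate 2 did. Of the 717 broad peaks of heart replicate 1, 52.7% lay over 2 or more peaks of heart replicate 2, a library that did not choose them (background over all peaks of heart replicate 1, 3.45%). The share was 52.3% for globular replicate 2 (background 2.15%) and 72.0% for globular replicate 1 (background 3.19%). The median width of the widest peak over these 717 peaks was 1899 bp in heart replicate 2, 1485 bp in globular replicate 2 and 919 bp in globular replicate 1. Heart replicate 2 thus exceeded the mean of the globular lists by 697 bp. An exact permutation test over the 3 libraries (two-sided) gave p = 0.667, because globular replicate 1 stood further from the other lists than heart replicate 2 did. The smallest p that 3 libraries allow is 0.333. The difference was 414 bp without globular replicate 1 and 980 bp without globular replicate 2. In the joined lists it was 737 bp, and the same exact permutation test gave p = 0.333.

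With the heart lists exchanged, the held-out heart list was further from the globular lists. That list was heart replicate 1, which also had the widest peaks over regions with 1 peak in each list (median 633 bp). The part of this general width in the difference was not tested. Of the 366 broad peaks of heart replicate 2, 18.3% were divided in heart replicate 1 (background 1.24%), 45.6% in globular replicate 2 (background 1.28%) and 71.0% in globular replicate 1 (background 2.56%). The median widest peak over them was 2622 bp in heart replicate 1, 1771.5 bp in globular replicate 2 and 1002 bp in globular replicate 1. The difference between heart replicate 1 and the mean of the globular lists was 1235 bp (exact permutation test over 3 libraries, two-sided, p = 0.333, the smallest possible). It was 850.5 bp without globular replicate 1 and 1620 bp without globular replicate 2. Broad peaks of the globular lists were divided too. Of the 283 broad peaks of globular replicate 2, 74.6% were divided in globular replicate 1 (background 3.21%), 43.1% in heart replicate 2 (background 2.49%) and 27.2% in heart replicate 1 (background 1.81%). Globular replicate 2 was therefore divided more often by the other library of its own stage than by either heart library. Of the 46 broad peaks of globular replicate 1, 10 were divided in globular replicate 2 (21.7%, background 0.413%), and 6 in each heart list (13.0%, backgrounds 0.597% in replicate 1 and 0.637% in replicate 2).

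**Figure D2:**
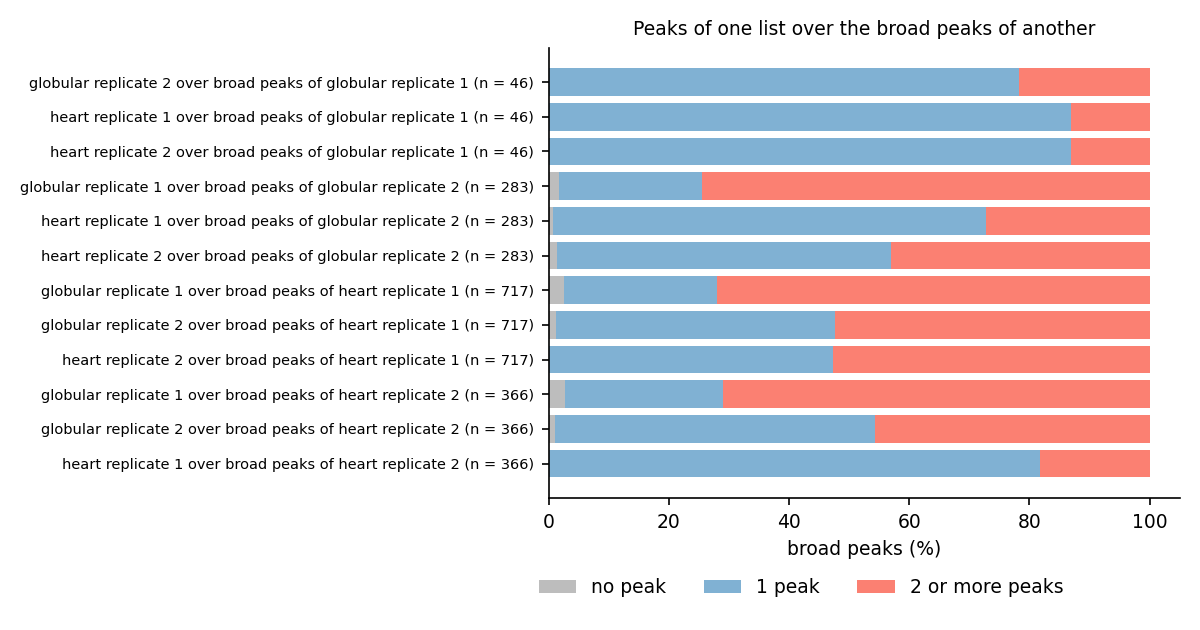
For the broad peaks (2000 bp or more) of each list, the share (%) that had no peak, 1 peak or 2 or more peaks of another list over them, with the number of broad peaks in parentheses. Globular replicate 1 divided 71.0% to 74.6% of the broad peaks of the other 3 lists, heart replicate 2 and globular replicate 2 each divided about the same share of those of heart replicate 1 (52.7% and 52.3%), and heart replicate 1 divided the fewest of those of heart replicate 2 (18.3%).

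The share of divided peaks grew with width without a step at 2000 bp. Of the heart replicate 1 peaks of 1000 bp to under 1500 bp, 15.3% were divided in globular replicate 1, 10.2% in globular replicate 2 and 18.7% in heart replicate 2. From 1500 bp to under 2000 bp the shares were 44.5%, 30.1% and 38.0%. From 2000 bp to under 3000 bp they were 67.5%, 45.8% and 50.7%, and at 3000 bp or more 86.1%, 72.8% and 59.0%. Globular replicate 2 was thus below heart replicate 2 in the classes from 1000 bp to under 3000 bp and above it among the 173 widest peaks. Among the 92 peaks of heart replicate 2 of 3000 bp or more, 80.4% were divided in globular replicate 1, 71.7% in globular replicate 2 and 21.7% in heart replicate 1. Per kilobase of heart replicate 1 peak there were 0.73 peaks of globular replicate 1, 0.61 of globular replicate 2 and 0.61 of heart replicate 2 over the broad peaks, against 0.90, 0.90 and 1.00 over peaks of 1000 bp to under 1500 bp. Each overlapping peak counts as 1 whole peak, so a wider peak with the same count has a lower value per kilobase. Nothing about broad peaks is therefore read from this difference.

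**Figure D3:**
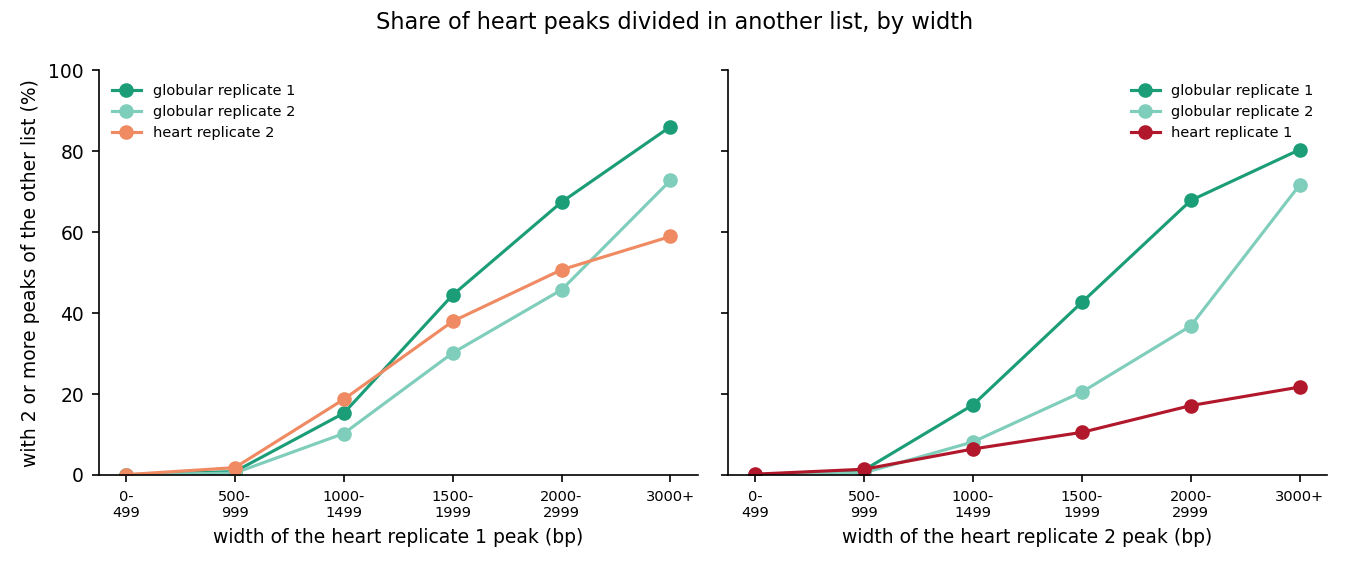
The share (%) of heart replicate 1 peaks (left) and heart replicate 2 peaks (right) with 2 or more peaks of another list over them, by width of the heart peak (bp), 1 line per other library. The lines climb across all classes, reaching 86.1% for globular replicate 1 over heart replicate 1 peaks of 3000 bp or more, and only 21.7% for heart replicate 1 over heart replicate 2 peaks of that width.

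Within divided domains the pieces were about 1 kb apart, or 1540.5 bp (median) in the 67 domains divided in heart replicate 1. The domains were at least 2000 bp wide, and 569 of 768 were narrower than 3000 bp. Their width thus largely sets the spacing of a few pieces, and nothing is read from it. The summits of neighbouring peaks over a domain had a median spacing of 1016 bp in globular replicate 1, 1201 bp in globular replicate 2 and 1063 bp in heart replicate 2. The uncovered gaps between them had a median of 318 bp (797 gaps) in globular replicate 1, 285 bp (523 gaps) in globular replicate 2 and 173 bp (490 gaps) in heart replicate 2. The stages cannot be compared by these values, since the heart peaks chose the domains and the smallest gap of globular replicate 2 is 102 bp. Gaps under 200 bp made up 26.1%, 27.9% and 59.0% of these. The second strongest piece had a median of 0.66 times the fold of the strongest in globular replicate 1, 0.65 in globular replicate 2 and 0.56 in heart replicate 2. The middle of a break in heart replicate 2 was mostly uncovered in the globular lists, but most globular breaks were covered in the heart lists. The middle of a heart replicate 2 gap was uncovered in globular replicate 1 in 91.0% of cases and in globular replicate 2 in 70.0%, whereas 45.0% and 30.6% of all domain bases were uncovered in those lists. The middle of a globular replicate 2 gap was uncovered in globular replicate 1 in 89.1% of cases. The middle of a globular replicate 1 gap was uncovered in globular replicate 2 in 45.0% of cases, and in 63.0% of the 521 gaps in domains that both globular lists divided. In heart replicate 2 the middle was uncovered for 24.2% of globular replicate 1 gaps and 35.6% of globular replicate 2 gaps, against 11.7% of domain bases. In heart replicate 1 these shares were 2.13% and 2.68%, against 1.25%. Heart coverage of domains is set by the rule.

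Any pair of lists placed the strongest point of most domains within 100 bp, and all 4 lists together did so in 50.7% of them. The median distance between the summits of the strongest peaks was 30 bp for the heart lists (768 domains), 46 bp for the globular lists (748 domains) and 38 to 55 bp for lists of different stages. It was within 100 bp in 78.4% of domains between the heart lists, in 69.4% between the globular lists and in 63.6% to 70.8% across stages. Distances over 1000 bp were found in 6.51% of domains between the heart lists, 11.6% between the globular lists and 12.4% to 15.1% across stages. Over the 748 domains with a peak in each list, the 4 summits spanned at most 100 bp in the same 50.7% and more than 1000 bp in 23.3%. When a domain was divided in globular replicate 1, the heart replicate 1 summit lay inside 1 of the pieces in 526 of 552 cases and inside the strongest piece in 410. In globular replicate 2 it lay inside a piece in 387 of 406 cases and inside the strongest in 307. Inside broad peaks the summit was off centre more often than in narrower ones. It lay within the outer 25% of the width at either end in 37.8% of the broad peaks of heart replicate 1 and 39.6% of those of heart replicate 2, against 7.84% and 7.11% of the narrower peaks. In globular replicate 2 these shares were 38.2% of the broad and 6.77% of the narrower peaks.

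The widest domain lay on chromosome 14 from 6622097 to 6632563 and was continuous in 1 list of each stage. Heart replicate 1 had a single peak of 10467 bp with a fold of 16.01, and globular replicate 2 had a single peak of 10691 bp with a fold of 5.45. Heart replicate 2 had 2 peaks of 6146 and 3973 bp, and globular replicate 1 had 5, the widest of 4671 and 2475 bp. The strongest summits lay 1667 and 1867 bp into the domain in heart replicates 1 and 2, 387 bp in globular replicate 2 and 8587 bp in globular replicate 1, so the lists did not share a strongest point. The second domain, on chromosome 2 from 1898099 to 1908161, also had the most globular peaks. It held 1 peak of 9965 bp in heart replicate 2 and 2 peaks of 7959 and 1996 bp in heart replicate 1. Over the same stretch lay 8 peaks of 268 to 787 bp in globular replicate 1 and 5 peaks of 411 to 2065 bp in globular replicate 2. Here the strongest summits of all 4 lists lay within 31 bp of each other near the right end, with a fold of 12.9 (replicate 1) and 9.28 (replicate 2) at the globular stage and 23.8 (replicate 1) and 18.6 (replicate 2) at the heart stage.

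The other domains of the widest heart peaks were divided in different libraries. On chromosome 17, from 13472788 to 13479589, a 6802 bp peak of heart replicate 1 matched 4 peaks of heart replicate 2, 6 of globular replicate 1 and 3 of globular replicate 2. The number of pieces in heart replicate 2 was thus between those of the globular lists. On chromosome 6, from 6956333 to 6963533, the heart lists had 1 peak each (7132 and 6972 bp) and the globular lists 4 each, of which the widest had 4750 bp in replicate 1 and 3600 bp in replicate 2. On chromosome 18, from 57007006 to 57013723, a 6718 bp peak of heart replicate 1 matched 2 peaks of heart replicate 2, 5 of globular replicate 1 and 3 of globular replicate 2.

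Of the 5 domains with the most globular peaks, all but 1 were divided in at least 1 heart list. The exception lay on chromosome 7 from 44016429 to 44021362 and was a single peak in both heart lists. Heart replicates 1 and 2 had 1 peak each of 4881 and 4929 bp, with folds of 6.95 and 4.98. Globular replicate 1 had 7 peaks of 255 to 490 bp with folds of 2.97 to 6.63, and globular replicate 2 had 5 peaks of 280 to 1588 bp with folds of 2.18 to 4.49. The globular replicate 1 peak with the fold of 6.63 had its summit at 44016255, before the start of the domain. The next highest fold of that list was 4.57. In this domain the heart peak ranked at percentile 31.9 in heart replicate 1 and 50.6 in heart replicate 2. On chromosome 5, from 5529263 to 5536082, heart replicate 2 had 1 peak of 6514 bp and heart replicate 1 had 2 of 6340 and 673 bp, against 6 peaks (globular replicate 1) and 5 peaks (globular replicate 2) of at most 1177 bp. A second domain of chromosome 5, from 13080579 to 13087145, had 1 heart replicate 1 peak of 6567 bp, 2 heart replicate 2 peaks, and 5 and 4 globular peaks. The domain of chromosome 9 from 5862618 to 5869262 was divided in every list, with 2 and 3 peaks in the heart lists and 4 and 5 in the globular lists (replicate 1 first).

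**Figure D4:**
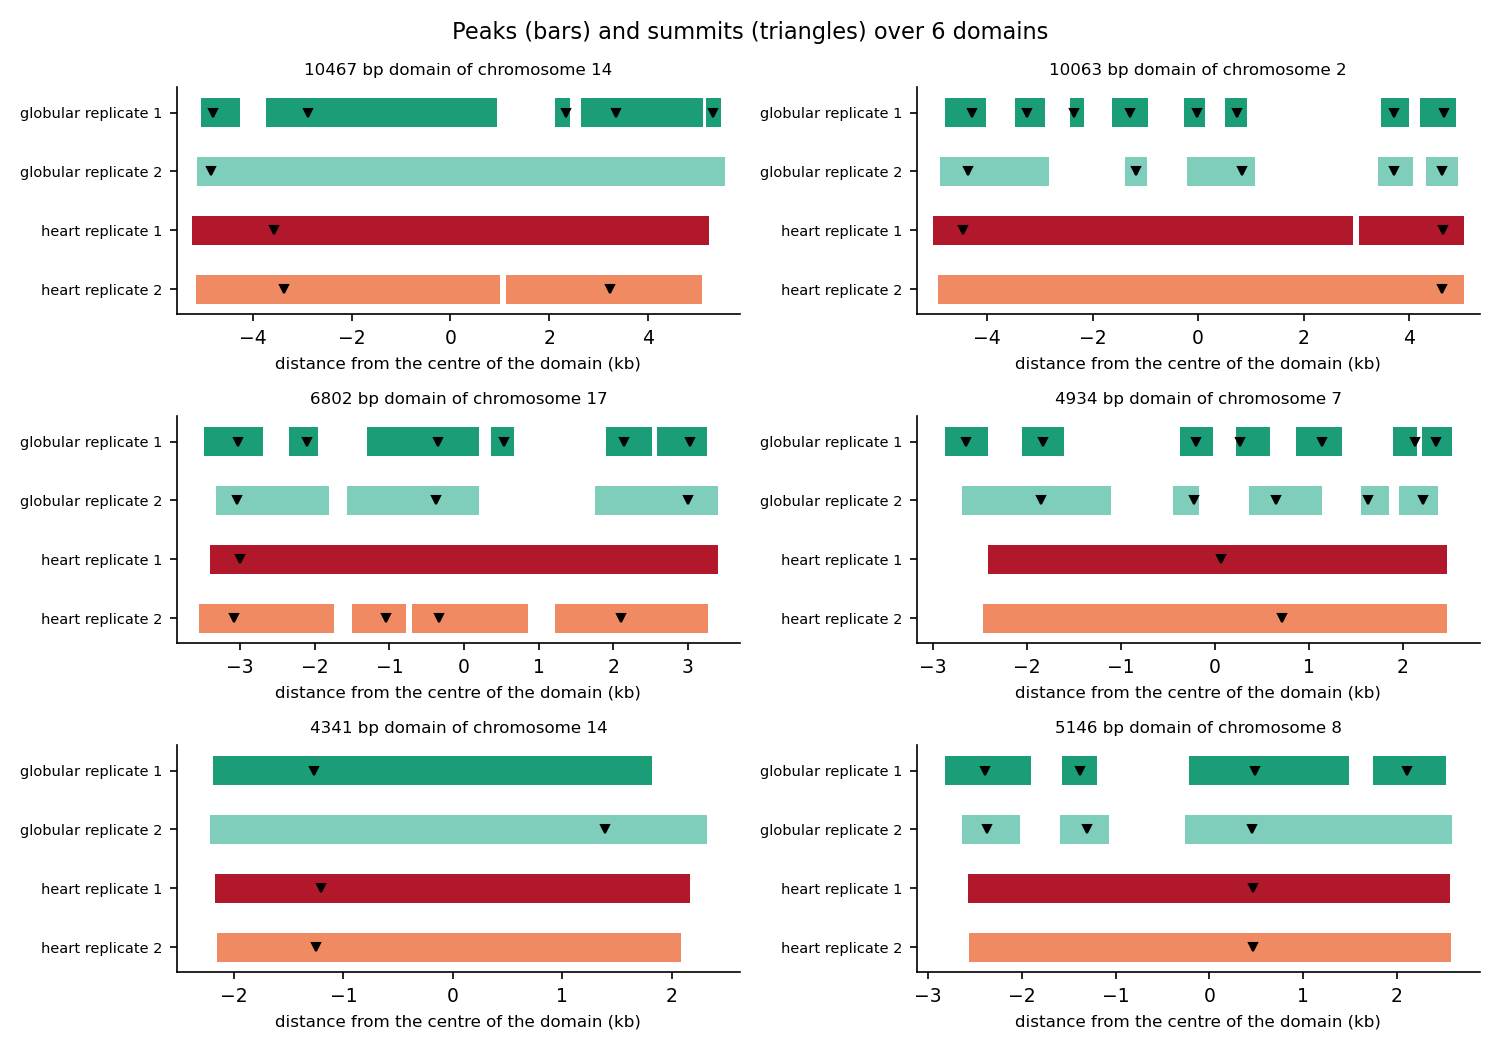
Peaks (bars) and their summits (triangles) of the 4 lists over 6 named domains, by distance from the centre of the domain (kb). The 10467 bp domain of chromosome 14 is continuous in heart replicate 1 and globular replicate 2, the domain of chromosome 2 is divided into 8 and 5 globular peaks, and the 4341 bp domain of chromosome 14 is 1 peak in every list.

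A small set of domains was broad in every library. All 4 lists had a peak of 2000 bp or more over 33 domains (4.30%). The share of all heart regions was 0.0527%, and since the heart widths are part of the rule nothing is read from the difference. On chromosome 14, from 1170559 to 1174899, each list had exactly 1 peak, of 4010 bp in globular replicate 1, 4546 bp in globular replicate 2, 4341 bp in heart replicate 1 and 4237 bp in heart replicate 2. At the globular stage the fold was 6.30 (replicate 1) and 5.56 (replicate 2), and at the heart stage 19.7 (replicate 1) and 16.2 (replicate 2). The summit lay 897 bp into the domain in globular replicate 1, 970 bp in heart replicate 1 and 917 bp in heart replicate 2, but 3562 bp into it in globular replicate 2. On chromosome 10, from 40364211 to 40370481, the heart lists had 1 peak each of 6150 and 6187 bp, and each globular list had 1 of 4613 and 4697 bp beside a short peak of 453 and 436 bp. The break between the short and the long peak was thus found in both globular lists. On chromosome 17, from 5460603 to 5465450, heart replicate 1 had a single peak of 4848 bp, and heart replicate 2 and both globular lists had a short peak of 379 to 550 bp beside one of 4041 to 4083 bp. Here heart replicate 2 was divided in the same way as the globular lists. The widest domain of chromosome 14 and the domain of chromosome 6 described above completed the first 5 of this kind.

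In the strongest broad domains the 4 lists placed their summits close together. Ranked by their worst percentile over the 4 lists, the first lay on chromosome 18 from 57421110 to 57424800, where the strongest peak was the first of its list in both globular lists and in heart replicate 2. The fold there was 53.0 (globular replicate 1), 29.5 (globular replicate 2), 44.4 (heart replicate 1) and 43.2 (heart replicate 2), and the 4 summits lay within 9 bp. On chromosome 8, from 47620013 to 47625158, the heart lists had 1 peak each of 5141 and 5143 bp with a fold of 42.8 in both. Globular replicate 1 had 4 peaks there, the strongest with a fold of 49.7, and globular replicate 2 had 3, the strongest with a fold of 19.5. The strongest summits of the 4 lists lay within 34 bp there, in a domain picked for its high rank in every list. The domain of chromosome 1 from 52469365 to 52471662 had its 4 summits within 47 bp, that of chromosome 17 from 8782265 to 8784285 within 52 bp, and that of chromosome 15 from 7388952 to 7391473 within 48 bp. The chromosome 15 domain was 1 peak in every list, 1768 and 2231 bp wide in the globular lists and 2522 and 2393 bp wide in the heart lists.

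The 8 domains without a globular peak ranked near or below the middle of the heart lists. Their strongest peak lay between percentile 39.5 and 71.6 in heart replicate 1 and between 50.7 and 93.0 in heart replicate 2. The widest was on chromosome 13 from 37396777 to 37400295, with 1 peak of 3468 bp in heart replicate 1 (fold 5.56) and 3 peaks in heart replicate 2, the strongest with a fold of 4.40. The next was on chromosome 15 from 15962557 to 15965152, with a 2596 bp peak of heart replicate 1 (fold 3.84) and 2 shorter peaks of heart replicate 2. Also in this group were a domain of chromosome 16 from 1460306 to 1462731, one of chromosome 12 from 38508951 to 38511298 and one of chromosome 6 from 45231632 to 45233918. A missing call does not show that the protein was absent. Domains were also grouped into 4 parts by the fold of their strongest heart replicate 1 peak. All 19 domains without a peak in globular replicate 1 and all 9 without one in globular replicate 2 were among the 197 domains of the lowest part (fold 3.77 to 9.83). In globular replicate 2 the divided share was 59.4% in the lowest part and 42.9% in the highest (fold 20.9 to 44.4). In globular replicate 1 it was 58.9% in the lowest part, 81.0% in the second, 76.4% in the third and 71.7% in the highest, so the globular lists did not show the same order.

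Broad domains were found on all 20 chromosomes and, along a chromosome, lay toward the ends about as often as all heart regions. Of the 766 domains on chromosomes, 71.4% had their centre in the outer 20% of the chromosome at either end, against 70.1% of all heart regions. The sixth of 10 equal parts of a chromosome held 11 domains (1.44%), against 2.24% of heart regions. Chromosome 13 had the most domains (56) and chromosome 18 the fewest (21). As a share of the heart regions of a chromosome, domains ranged from 0.705% on chromosome 18 to 1.79% on chromosome 12. On chromosome 13 only 39.3% of the domains and 35.9% of all heart regions lay in the outer part. Globular replicate 1 divided between 56.8% (chromosome 5) and 88.9% (chromosome 20) of the domains of a chromosome, and globular replicate 2 between 34.8% (chromosome 6) and 71.1% (chromosome 2). The remaining 2 domains were on an unplaced scaffold.

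**Figure D5:**
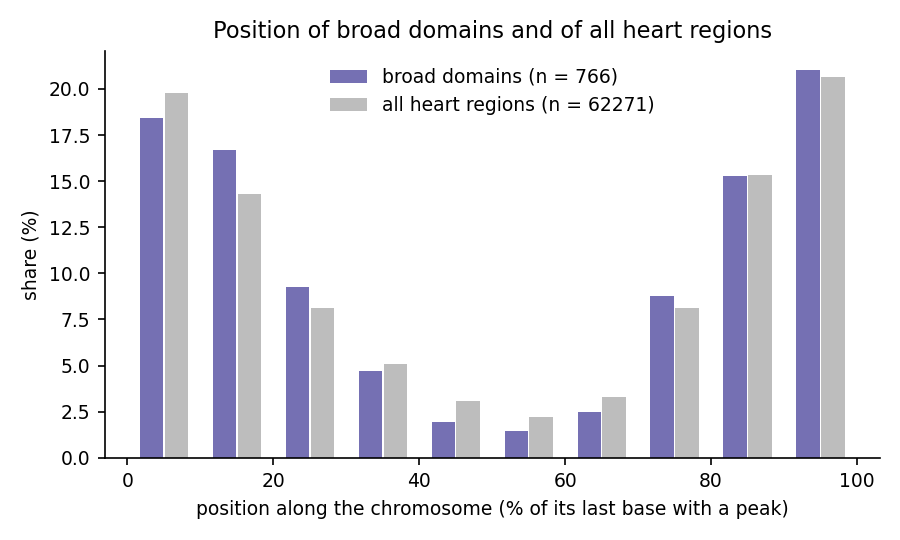
The share (%) of the 766 broad domains on chromosomes and of all 62271 heart regions in each of 10 equal parts of a chromosome, by position (% of the last base with a peak). Both are high toward the ends and low in the middle, with 1.44% of domains and 2.24% of heart regions in the sixth part.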

How the data were processed

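Peak lists of 4 ChIP libraries were used, 1 list per library. The submitters' processing notes name MACS2, Bowtie 0.12.7 and SAMtools 0.1.18 without saying how each was set. Which genome build and which input were used, and how duplicates and the threshold were handled, is not given in the sources used here. Each deposited file holds start, end and summit offset, a score (the whole part of 10 times −log10 q), a fold ratio at the summit over the local background, −log10 p and −log10 q, all by the authors. The deposited lists have a lowest −log10 q of 2.00 to 2.04. Folds of different lists rest on different backgrounds and are used within a list.

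Broad peaks (2000 bp or more) of the heart lists were merged on 1 bp of overlap. Reads at globular summits were recovered from fold and p with the arithmetic of MACS2 (1 is added to pileup and background before the ratio is taken, and p is Poisson), as whole numbers within 0.002 in −log10 p, for peaks with −log10 p under 250. Domains named were the first 5 by heart width, by number of globular peaks, by the narrowest of their 4 widest peaks and by worst rank percentile, the 5 widest without a globular peak, and those next to the limit. The members and the lists of domains were chosen with earlier results of these data known. Analyses used Python 3.11.15, numpy 2.4.6, pandas 2.3.3, scipy 1.17.1 and matplotlib 3.10.9, and were tested on simulated data. Alternatives changed the width limit, the threshold, list length, merging, the overlap and the libraries.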

Additional observations from a re-analysis of the deposited data

How the results depend on the processing

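The number of domains depended on the width limit, with 2039 at 1500 bp and 188 at 3000 bp, and was 311 when both heart lists had to be broad. It ranged from 366 to 717 when a heart library was left out. The mean share of domains divided in the globular lists (62.4%) was 46.7% at a limit of 1500 bp and 78.7% at 3000 bp. It lay between 52.9% and 71.9% under the other 11 settings, which include leaving out each library. These ends are the values of globular replicate 2 and globular replicate 1 alone, each left when the other was dropped. Among these settings, those that kept both globular lists gave 58.3% to 65.9%. The stage difference in broad peaks (0.587 points) stayed above 0 under all 10 settings and ranged from 0.319 to 0.854 without a library. With a replicate block, which compares stages within a replicate number, it was 0.587 (exact test over sign changes, p = 0.50, the smallest that 2 pairs allow). The labels tie no number across stages, and replicate differences in log2 fold correlated by -0.04 between stages over 23335 regions. The held-out differences in widest peak (697 and 1235 bp) also stayed above 0 under all 7 settings each, ranging from 414 to 980 bp and from 850.5 to 1620 bp without a globular library, where no test is left. No read totals are given, and the part of depth was not tested.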

Other observations

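The nearest other domain was within 10000 bp for 80 of the 768 domains (10.4%), and no share of all heart regions is given for comparison. Some of them lay almost side by side. On chromosome 17 from 646350 to 651332, 2 domains filled 4962 bp of a span of 4983 bp. The 80 domains formed 38 pairs and 1 run of 4, on chromosome 15 from 48578101 to 48605310. Its 4 domains were 2264, 2227, 3706 and 2142 bp wide and held 10339 bp of the 27210 bp of the run. Heart replicate 1 had a single peak over each of the 4. The last of them had a fold of 28.6 (replicate 1) and 26.0 (replicate 2) at the heart stage and of 12.5 (replicate 1) and 16.2 (replicate 2) at the globular stage. The third domain was divided into 3 peaks in heart replicate 2 and in both globular lists.

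Broad globular peaks without a broad heart peak were also found. Of the 283 broad peaks of globular replicate 2, 69 (24.4%) lay outside every domain. Of these 69, 54 lay over 2 or more peaks of heart replicate 1, against 27.2% of all 283 and 1.81% of all peaks of the list. By the rule no heart peak of 2000 bp or more lies over a peak outside the domains, so nothing is read from this difference. Of the 46 of globular replicate 1, 6 lay outside. The widest such peak of globular replicate 2 was on chromosome 7 from 8847395 to 8852575, with 5181 bp and a fold of 5.32. It overlapped no peak of globular replicate 1 or heart replicate 2 and 1 peak of heart replicate 1, of 463 bp. Its width of 5181 bp thus rests on a single library. The next was on chromosome 3 from 40276182 to 40279246, a 3065 bp peak with a fold of 12.2 that overlapped 3 peaks of globular replicate 1 and 2 of each heart list.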
